A study of Mus musculus with 9 samples.

Results

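Interferon response genes were compared between diets in male C57BL/6J mice, in periprostatic fat, which surrounds the prostate. The set was a fixed list of 45 symbols: interferon receptor genes, interferon regulatory factor (Irf) genes with Stat2, nucleic acid sensors, and antiviral effectors. A member entered when an array probe set carried that symbol alone, and of several such probe sets the brightest, by its mean over 9 arrays, was used. This gave 42 members among 22180 genes. Oas1a and Irf5 had only a probe set shared with another gene symbol and are not analysed here, nor is Ifi44.

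The 5 high fat mice ate a diet with 60% of its energy as fat and the 4 low fat mice a diet with 10%. Both diets ran for 12 weeks from 6 weeks of age in one vivarium, with free access to food, and the tissue was taken at 18 weeks. All mice were of one inbred strain with no transgene named, and each array carried 1 mouse, unpooled. Values are log2 expression after RMA, a method that corrects background, equalises the probe distributions of the arrays and summarises probes, so 1 unit is a doubling and levels of different genes are not comparable. Differences are high fat minus low fat.

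Type I interferons bind the receptor made of Ifnar1 and Ifnar2, which activates the kinases Jak1 and Tyk2. The signal reaches Stat2, which acts in a complex with Irf9 that binds the interferon-stimulated response element (ISRE) in the promoters of antiviral genes. Interferon gamma binds Ifngr1 and Ifngr2 and acts mainly through another promoter element, the gamma-activated site (GAS). In adipose tissue these genes are expressed by adipocytes, endothelial cells and leukocytes.

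Promoter stretches of 6 members are shown because they carry the binding sequences that define the response, and because these genes stand for the patterns described below: effectors with no difference that passed, the interferon gamma-inducible GTPase genes, and Irf8, the member with the largest increase. Each is 60 bases from RefSeq (GRCm38.p6), 5′ to 3′ in the gene's direction. Capitals mark matches of the ISRE type (TTTC, any 2 bases, TTTC, or on the other strand GAAA, any 2 bases, GAAA) and of the GAS type (TTC, any 3 bases, GAA, which reads the same on both strands). Overlapping matches run together.
Isg15 (chr4:156200859-156200918, minus strand): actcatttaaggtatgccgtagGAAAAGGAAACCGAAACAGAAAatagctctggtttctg
Ifit1 (chr19:34640769-34640828, plus strand): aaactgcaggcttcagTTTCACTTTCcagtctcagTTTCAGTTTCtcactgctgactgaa
Igtp (chr11:58199496-58199555, plus strand): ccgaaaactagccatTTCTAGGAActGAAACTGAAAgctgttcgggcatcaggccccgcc
Irgm2 (chr11:58214887-58214946, plus strand): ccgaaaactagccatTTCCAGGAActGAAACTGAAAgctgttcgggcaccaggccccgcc
Irgm1 (chr11:48871421-48871480, minus strand): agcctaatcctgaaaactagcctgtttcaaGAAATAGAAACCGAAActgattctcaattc
Irf8 (chr8:120736168-120736227, plus strand): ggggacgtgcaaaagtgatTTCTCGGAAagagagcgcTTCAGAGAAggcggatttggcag

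The Isg15 stretch held 3 overlapping ISRE-type matches and the Ifit1 stretch 2. The stretches of Igtp and Irgm2 had the same layout, with 1 GAS-type match and, 2 bases on, 1 ISRE-type match, and 58 of their 60 bases were the same. Irgm1 had 2 overlapping ISRE-type matches, and Irf8 had 2 GAS-type matches in this stretch. Promoters, taken as 250 bases before to 50 after each start, were found for 32 members, 38 promoters in all. No promoter was used for Dhx58, Mx1, Mx2, Oas1b, Oas2, Parp14, Rtp4, Tmem173, Usp18 and Zbp1. The search for members, unlike that over all genes, left out 1 chromosome, so not all of these symbols need lack an entry. Of these 32 genes, 14 (43.8%) held an ISRE-type match, against 3.99% of all 27025 genes in the table, and 12 (37.5%) a GAS-type match, against 9.55%. By role, ISRE-type matches were in 9 of 16 effectors, 3 of 4 sensors, 2 of 8 transcription factors and 0 of 4 receptors. A match is a string of letters and no evidence of binding.

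By limma with Benjamini-Hochberg adjustment over all genes, 7 of 42 members rose in high fat diet and 1 fell at an adjusted p of 0.05, whereas 34 did not pass. Over all genes 21.5% passed, 12.4% higher and 9.13% lower, so the members' share, 19.0%, lay near that of the whole array. By role, 3 of 4 receptors rose, 1 of 8 transcription factors, 2 of 7 sensors and 1 of 23 effectors, and the member that fell was an effector. The median difference was 0.32 for receptors, -0.11 for transcription factors, 0.04 for sensors and -0.03 for effectors, against -0.03 for all 42 members and -0.001 for all genes. The groups of mice did not overlap in 7 members, 5 higher and 2 lower, against 20.7% of all genes (11.6% higher and 9.15% lower). Scaling moved the split of members past the threshold. It was 6 higher and 3 lower with quantile normalization repeated, and 6 higher and 4 lower after subtracting each array's median. Over all genes the same settings gave 2320 higher and 2771 lower, and 2227 and 3056, against 2742 and 2026.

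**Figure D1:**
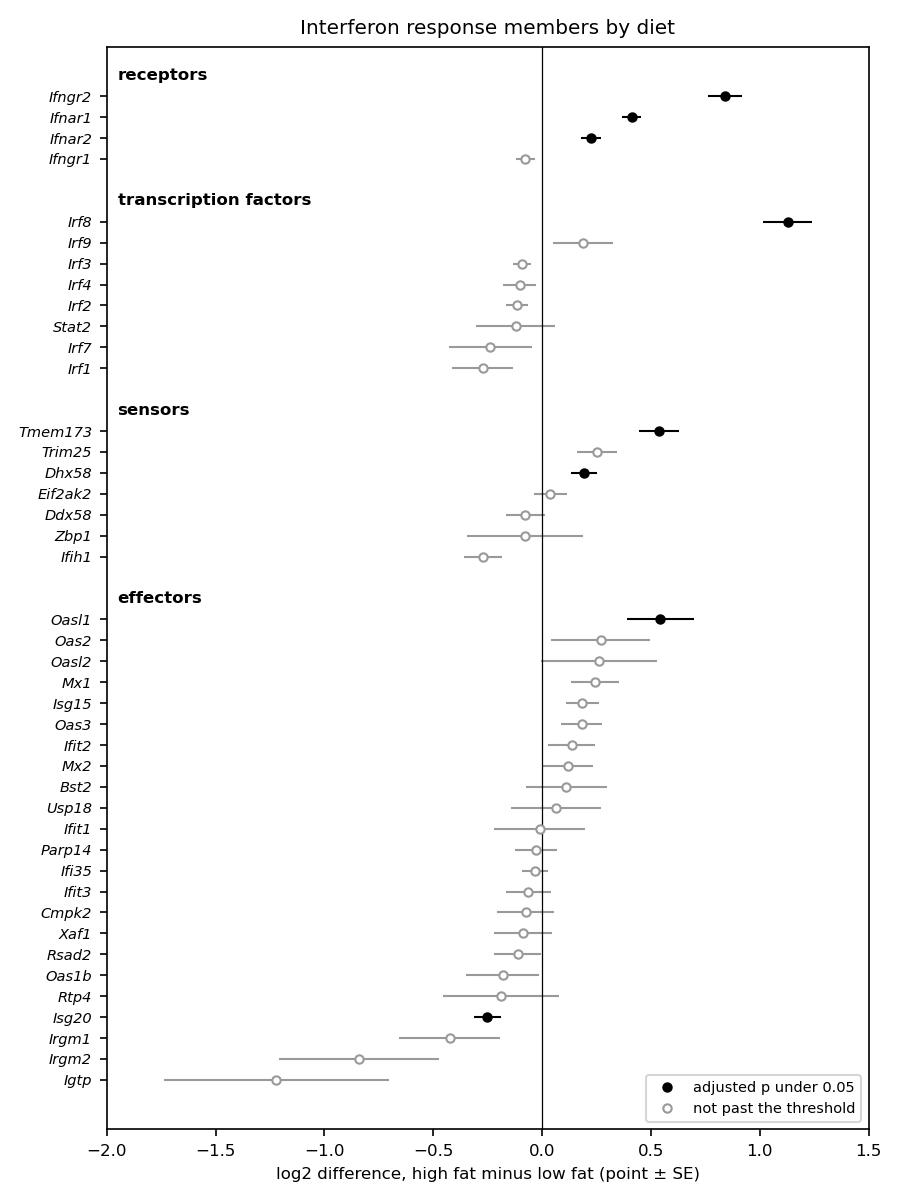
Log2 difference (high fat minus low fat, point ± SE) of each of the 42 members, grouped by role; filled points passed an adjusted p of 0.05. The 3 receptor genes that rose, Irf8 and Tmem173 lie to the right, most effectors lie near 0, and Igtp, Irgm2 and Irgm1 lie to the left with wide errors.

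Of the 4 receptor genes, both chains of the type I receptor and 1 chain of the interferon gamma receptor rose. Ifngr2, the signalling chain of the interferon gamma receptor (probe set 17327084), was at 10.70, 10.73, 10.84, 10.64 and 10.57 in high fat mice 1 to 5, against 10.03, 9.65, 9.86 and 9.89 in low fat mice 1 to 4. Every high fat mouse lay above every low fat mouse, and the gene was 1.79-fold higher (difference 0.84 ± 0.08 (SE), limma adjusted p = 0.000121). Ifnar1, a chain of the type I receptor, was at 10.24, 10.33, 10.25, 10.22 and 10.18 in high fat mice 1 to 5, against 9.79, 9.83, 9.79 and 9.92 in low fat mice 1 to 4. Its groups were also apart, by a difference of 0.41 ± 0.05 (SE), 1.33-fold higher (limma adjusted p = 0.000234). Ifnar2, the other chain, was at 11.74, 11.73, 11.66, 11.64 and 11.67 in high fat mice 1 to 5, against 11.52, 11.38, 11.43 and 11.53 in low fat mice 1 to 4. The groups did not overlap, but the step was small, 0.22 ± 0.04 (SE) or 1.17-fold higher (limma adjusted p = 0.00586). Ifngr1, the ligand-binding chain of the interferon gamma receptor, was at 12.05 ± 0.06 (SD, n = 5) in the high fat group and 12.13 ± 0.05 (SD, n = 4) in the low fat group, and its difference of -0.08 ± 0.04 (SE) did not pass (limma adjusted p = 0.264). High fat mouse 3 was the low one among its group for Ifngr1, at 11.95. These are whole-tissue values, so more cells of a type that carries a receptor and more RNA per cell cannot be told apart.

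**Figure D2:**
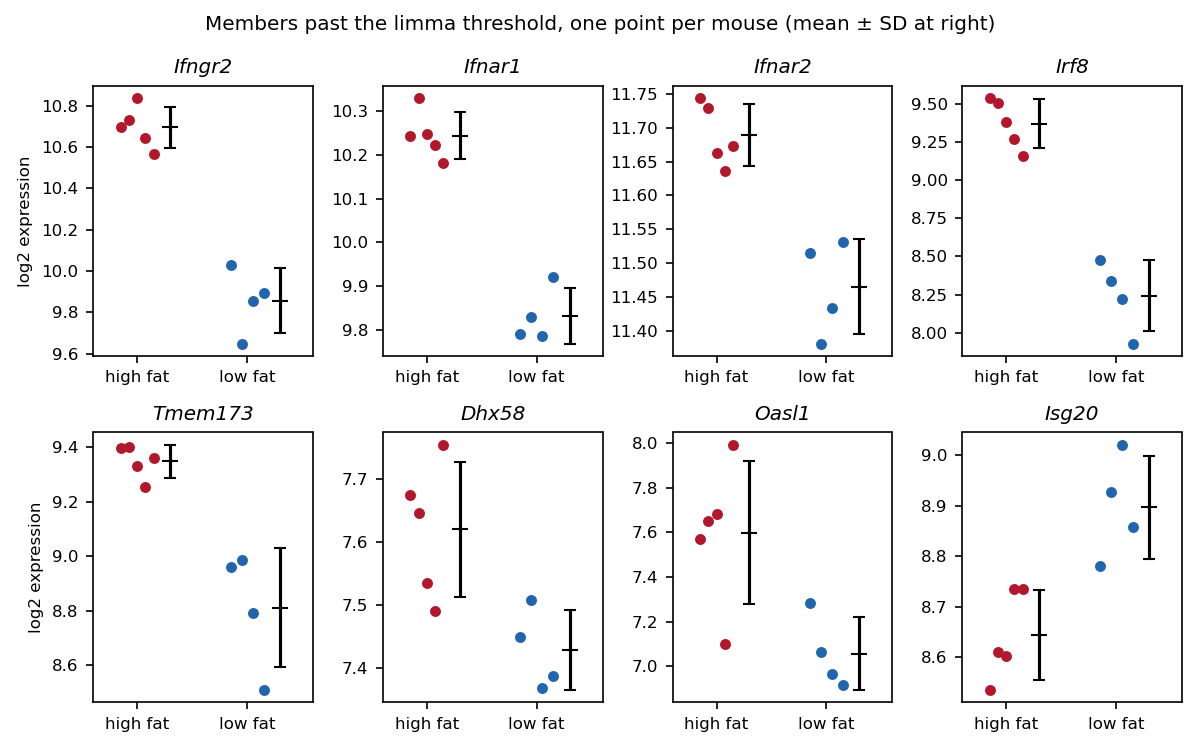
Log2 expression per mouse of the 8 members past the threshold, with mean ± SD beside the points; each panel has its own axis, which does not start at 0. Ifngr2, Ifnar1, Ifnar2, Irf8 and Tmem173 have no overlap between diets, Dhx58 and Oasl1 overlap, and Isg20 is lower in every high fat mouse.

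The 3 receptor genes that rose stand in a row with Il10rb on chromosome 16, in the order Ifnar2, Il10rb, Ifnar1, Ifngr2 (GRCm38.p6 gene table), whereas Ifngr1 is on chromosome 10. Il10rb, the chain shared by the interleukin-10 and interferon lambda receptors, rose as well and was at 10.61 ± 0.15 (SD, n = 5) in the high fat group and 10.14 ± 0.12 (SD, n = 4) in the low fat group (difference 0.47 ± 0.09 (SE), limma adjusted p = 0.00347). All 4 genes of this row thus passed in the same direction. The comparison with the genes on either side was made after these values had been seen. Of the 6 genes before and the 6 after, 11 were measured, of which 2 rose, 3 fell and 6 did not pass. Over all genes 12.4% rose and 9.13% fell. The nearest neighbour before the row, Olig1, differed by -0.02 and did not pass (limma adjusted p = 0.769). The next before it, Olig2, rose by 0.29 (limma adjusted p = 0.0109), more than Ifnar2 within the row, and Synj1, further off, rose by 0.20 (limma adjusted p = 0.0261). The nearest after it, Tmem50b, fell by 0.18 (limma adjusted p = 0.0261), and the next, Dnajc28, fell by 0.24 (limma adjusted p = 0.0143).

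**Figure D3:**
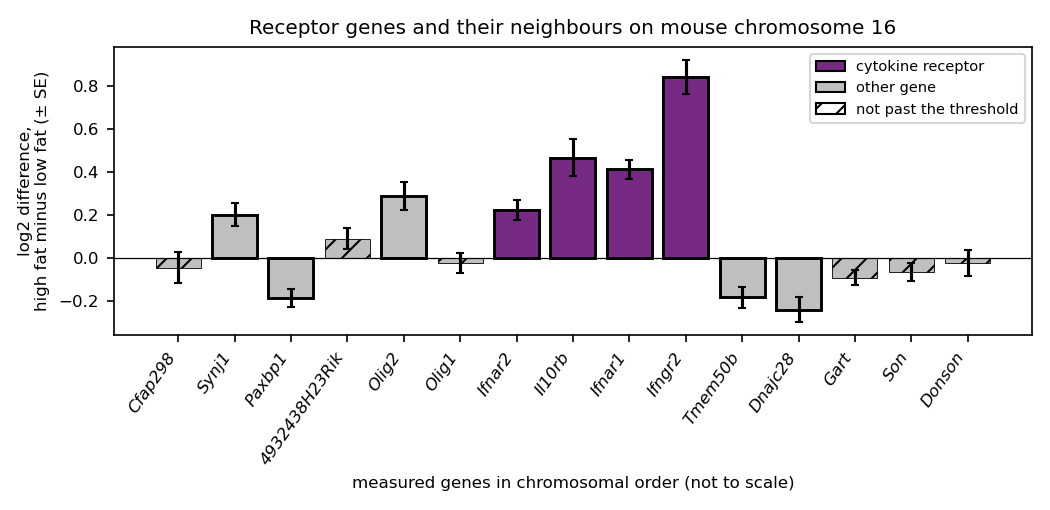
Log2 difference (high fat minus low fat, bar ± SE) of measured genes in their order along chromosome 16, with the cytokine receptor genes in purple and hatching for genes that did not pass. The 4 receptor genes are higher in high fat mice, from 0.22 to 0.84, with Olig1 (-0.02) and Tmem50b (-0.18) on either side; Olig2 (0.29) and Synj1 (0.20) are also higher.

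Among transcription factors Irf8, which acts in the development of monocytes, macrophages and dendritic cells, rose most of all 42 members. It was at 9.54, 9.50, 9.38, 9.27 and 9.16 in high fat mice 1 to 5, against 8.48, 8.34, 8.22 and 7.93 in low fat mice 1 to 4. The groups did not overlap, and the difference of 1.13 ± 0.11 (SE) made it 2.18-fold higher (probe set 17506279, limma adjusted p = 0.000173). A second, dimmer probe set with the symbol Irf8 differed by 0.30 (6.62 in high fat mice and 6.32 in low fat mice), so with the mean of both probe sets the difference was 0.72.

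The other 6 Irf genes measured and Stat2 did not pass. Irf3, a factor switched on by phosphorylation below the nucleic acid sensors, was at 8.49, 8.43, 8.45, 8.46 and 8.42 in high fat mice 1 to 5, against 8.50, 8.53, 8.51 and 8.65 in low fat mice 1 to 4. Every high fat mouse lay below every low fat mouse, but the step was only -0.09 ± 0.04 (SE) (limma adjusted p = 0.149), and it passed with quantile normalization repeated (-0.15) and with centred arrays (-0.14). Irf2, a repressor that competes with Irf1, differed by -0.11 ± 0.05 (SE) (limma adjusted p = 0.154) and passed with centred arrays (-0.16). Irf1, an interferon gamma-induced activator, differed by -0.27 ± 0.14 (SE) (limma adjusted p = 0.215), and without low fat mouse 3 by -0.40, which passed. Irf4, a factor of lymphocytes that also acts in adipocyte lipolysis, differed by -0.10 ± 0.08 (SE) (limma adjusted p = 0.399), and Irf9, the partner of Stat2, by 0.19 ± 0.14 (SE) (limma adjusted p = 0.399).

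Irf7, the interferon-induced factor that amplifies the type I response, was at 8.54, 8.44, 8.32, 8.40 and 8.89 in high fat mice 1 to 5, against 8.76, 9.36, 8.32 and 8.60 in low fat mice 1 to 4. The highest value of all belonged to low fat mouse 2 and the highest of the high fat group to mouse 5, and the diets overlapped (difference -0.24 ± 0.19 (SE), limma adjusted p = 0.439). Without low fat mouse 2 the difference was -0.04. Stat2 ran from 8.78 to 9.22 (median 8.86) in high fat mice and from 8.72 to 9.63 (median 8.95) in low fat mice, with low fat mouse 2 and high fat mouse 5 at the top of their groups again (difference -0.12 ± 0.18 (SE), limma adjusted p = 0.694).

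Most macrophage markers moved with diet in the direction of Irf8 and of the 3 receptor genes that rose. Of 12 macrophage markers 11 rose, and their mean log2 level ran from 10.6 to 11.2 in high fat mice, against 9.78 to 10.1 in low fat mice. Among them were the lysozyme gene Lyz2 (difference 0.35) and the complement gene C1qb (0.92), and Cd68, a lysosomal glycoprotein gene, had the smallest p (1.87, limma adjusted p = 3.60e-05). Cd163, with a difference of -0.17, was the marker that did not pass. The markers' median difference was 0.93, against 1.13 for the brighter Irf8 probe set and 0.72 for the mean of both Irf8 probe sets. Dendritic cell markers rose in 1 of 8, and plasmacytoid dendritic cell markers rose in 1 of 8 and fell in 1. B and plasma cell markers rose in 1 of 10 and fell in 2. Their median difference was -0.65, with 8 of 10 differences below 0. It was 0.02 for dendritic cell markers and 0.01 for plasmacytoid dendritic cell markers. Over all genes 12.4% rose and 9.13% fell, so the dendritic cell count lay near the share of the whole array. Of 9 adipocyte markers 7 fell and 1, Lep, rose, and Fabp4 was at 13.8 in high fat mice and 13.9 in low fat mice. The part of these cell types in the differences of the members was not tested.

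Of the sensors, Tmem173 and Dhx58 rose. Tmem173, listed as Sting1 on the array and encoding the adaptor that answers cyclic dinucleotides made on cytosolic DNA, was at 9.40, 9.40, 9.33, 9.25 and 9.36 in high fat mice 1 to 5, against 8.96, 8.99, 8.79 and 8.51 in low fat mice 1 to 4. The groups were apart and the gene was 1.45-fold higher (difference 0.54 ± 0.09 (SE), limma adjusted p = 0.00227). Low fat mouse 4 had the lowest value. Dhx58, the RNA helicase LGP2 that tunes the related sensors, was at 7.68, 7.65, 7.53, 7.49 and 7.75 in high fat mice 1 to 5, against 7.45, 7.51, 7.37 and 7.39 in low fat mice 1 to 4. High fat mouse 4 lay just below low fat mouse 2, and the difference of 0.19 ± 0.06 (SE) passed narrowly (limma adjusted p = 0.0464). It no longer passed when any 1 of high fat mice 1, 2 or 5 or of low fat mice 1, 3 or 4 was left out, with differences from 0.16 to 0.20. Dhx58 also failed to pass with quantile normalization repeated (0.14, limma adjusted p = 0.116), with centred arrays (0.15, limma adjusted p = 0.102), with all rows of the table tested (limma adjusted p = 0.0602) and with trend and robust (limma adjusted p = 0.0604).

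The remaining sensors did not pass. Ifih1, the long double-stranded RNA sensor MDA5, was at 8.93 ± 0.16 (SD, n = 5) in the high fat group and 9.20 ± 0.13 (SD, n = 4) in the low fat group, just short of the threshold (difference -0.27 ± 0.09 (SE), limma adjusted p = 0.0512), and it passed in 8 of 19 other settings, among them both scalings (-0.31 and -0.32). Trim25, a ubiquitin ligase of the RNA sensor pathway, differed by 0.25 ± 0.09 (SE) (limma adjusted p = 0.0826). Without high fat mouse 4 its difference was 0.32, which passed. Ddx58, the RNA sensor RIG-I, differed by -0.08, Eif2ak2, the RNA-activated kinase PKR, by 0.04 and Zbp1, a sensor of Z-form nucleic acids, by -0.08, with limma adjusted p from 0.608 to 0.877. The sign of Eif2ak2 turned under both scalings (-0.01).

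Of 23 effectors, 1 rose, 1 fell and 21 did not pass, with 10 differences above 0 and 13 below. Oasl1, an oligoadenylate synthetase-like protein that restrains Irf7 translation in mouse, was at 7.57, 7.65, 7.68, 7.10 and 7.99 in high fat mice 1 to 5, against 7.29, 7.06, 6.97 and 6.91 in low fat mice 1 to 4. High fat mouse 4 lay among the low fat mice and mouse 5 above all others, and the gene was 1.46-fold higher (difference 0.54 ± 0.15 (SE), limma adjusted p = 0.0307). Leaving out any 1 of high fat mice 1 to 3 or low fat mice 2 to 4 ended that call, with differences from 0.49 to 0.55. Isg20, an exonuclease that degrades single-stranded RNA, was at 8.54, 8.61, 8.60, 8.74 and 8.74 in high fat mice 1 to 5, against 8.78, 8.93, 9.02 and 8.86 in low fat mice 1 to 4. Each high fat mouse lay below each low fat mouse, and the gene was 1.19-fold lower (difference -0.25 ± 0.06 (SE), limma adjusted p = 0.0162). Values spread more widely on 2 arrays, those of high fat mice 1 and 2, than on the rest. With both left out, neither Oasl1 (0.53) nor Isg20 (-0.20) passed. Calls over all genes fell as well in that setting, to 1716 higher and 1494 lower, against 2742 and 2026 with all mice.

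The classical markers of the response showed no difference that passed. Isg15, the ubiquitin-like modifier, was at 5.68, 5.82, 5.72, 5.68 and 5.94 in high fat mice 1 to 5, against 5.75, 5.43, 5.61 and 5.54 in low fat mice 1 to 4. The groups overlapped through low fat mouse 1 (difference 0.19 ± 0.08 (SE), limma adjusted p = 0.116). Mx1, an antiviral GTPase whose gene is defective in C57BL/6, was at 5.69, 5.57, 5.25, 5.44 and 5.84 in high fat mice 1 to 5, against 5.28, 5.45, 5.35 and 5.17 in low fat mice 1 to 4. High fat mouse 3 was lowest in its group and lay among the low fat mice, and the difference was 0.24 ± 0.11 (SE) (limma adjusted p = 0.155), whereas without high fat mouse 3 it was 0.32 and passed. Both genes, like Mx2, had group means below the array medians of 6.45 to 6.50, and whether such dim values lie above background was not determined. Ifit1, which binds RNA with foreign caps, ranged from 7.90 to 8.85 in high fat mice and from 7.82 to 8.64 in low fat mice, and its difference of -0.01 ± 0.21 (SE) was near 0 (limma adjusted p = 0.981). Usp18, which removes Isg15 and damps receptor signalling, ranged from 8.18 to 9.10 in high fat mice and from 8.16 to 8.92 in low fat mice (difference 0.06 ± 0.21 (SE), limma adjusted p = 0.875).

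The remaining effectors outside the GTPase group below had differences between -0.19 (Rtp4) and 0.27 (Oas2). They included Rsad2, the enzyme viperin (-0.11), Bst2, the virion-holding protein tetherin (0.11), Ifit2 (0.14), Ifit3 (-0.06), Cmpk2 (-0.08), Xaf1 (-0.09), Parp14 (-0.03) and Ifi35 (-0.03). The oligoadenylate synthetase genes Oas1b (-0.18), Oas3 (0.18) and Oasl2 (0.26) and the GTPase gene Mx2 (0.12) also belong here. Limma adjusted p ran from 0.225 for Oas3 to 0.884 for Parp14. Oas, Ifit and Mx genes have similar family members whose RNA can share probe signal, so which member a value reflects is uncertain.

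Igtp, Irgm1 and Irgm2, the interferon gamma-inducible GTPases that act on pathogen-containing vacuoles, came next, and Igtp and Irgm2 had the largest standard errors of the 42 members. Igtp was at 8.86, 8.60, 8.10, 8.14 and 8.59 in high fat mice 1 to 5, against 10.48, 11.13, 8.78 and 8.32 in low fat mice 1 to 4. Low fat mice 1 and 2 stood far above all other mice, and low fat mice 3 and 4 lay within the high fat range. Irgm2 was at 9.92, 9.91, 9.50, 9.56 and 10.02 in high fat mice 1 to 5, against 11.00, 11.79, 9.97 and 9.74 in low fat mice 1 to 4. The same 2 low fat mice were high, and low fat mice 3 and 4 again lay among the high fat mice. Irgm1 was at 6.95, 6.95, 6.71, 6.49 and 7.14 in high fat mice 1 to 5, against 7.59, 7.88, 6.85 and 6.77 in low fat mice 1 to 4. It divided the mice in the same way, and these related genes may share probe signal. The differences were -1.22 ± 0.52 (SE) for Igtp, -0.84 ± 0.37 (SE) for Irgm2 and -0.42 ± 0.23 (SE) for Irgm1 and did not pass (limma adjusted p = 0.131, 0.142 and 0.244). Without low fat mouse 2 the difference of Igtp was -0.74, and without low fat mouse 4 it was -1.67 and passed (limma adjusted p = 0.0351).

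**Figure D4:**
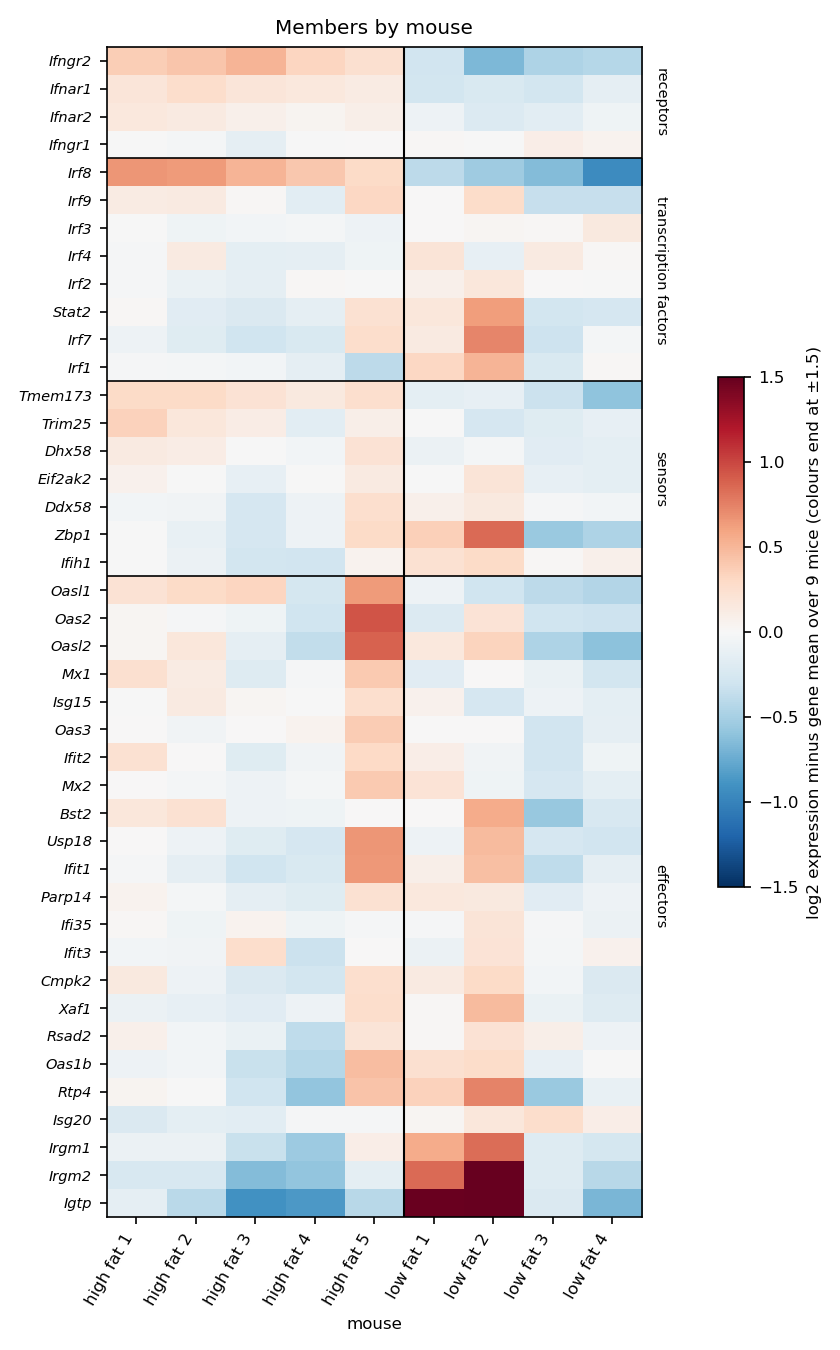
Log2 expression of each member minus its mean over the 9 mice, with high fat mice left of the line and low fat mice right; colours end at ±1.5, which Igtp and Irgm2 in low fat mouse 2 exceed. Ifngr2, Ifnar1, Ifnar2, Irf8 and Tmem173 divide by diet, whereas most effectors are high in high fat mouse 5 and low fat mouse 2.

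Within each diet, 1 mouse was the highest for most effectors. High fat mouse 5 was the highest of the high fat mice in 18 of 23 effectors and 5 of 7 sensors, and low fat mouse 2 the highest of the low fat mice in 16 of 23 effectors, 6 of 7 sensors and 5 of 8 transcription factors. High fat mouse 4 was the lowest of its group in 12 effectors and low fat mouse 4 the lowest of its group in 12. For the 20 effectors other than Igtp, Irgm1 and Irgm2, the mean of values centred per gene was 0.37 in high fat mouse 5 and -0.19 to 0.04 in the other high fat mice. It was 0.20 in low fat mouse 2 and -0.20 to 0.05 in the other low fat mice. For Igtp, Irgm1 and Irgm2 the mean was -0.66 to -0.15 in high fat mice, and 0.96, 1.54, -0.20 and -0.45 in low fat mice 1 to 4. The GTPase mean of high fat mouse 5 was the highest of the high fat mice (-0.15), but below those of low fat mice 1 and 2, and low fat mouse 2 was the highest of its diet in both sets. Examples of the first pattern were Oas2, at 9.95 in high fat mouse 5 and 8.71 to 9.03 in the other high fat mice, and Oasl2, at 10.69 against 9.43 to 9.98.

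**Figure D5:**
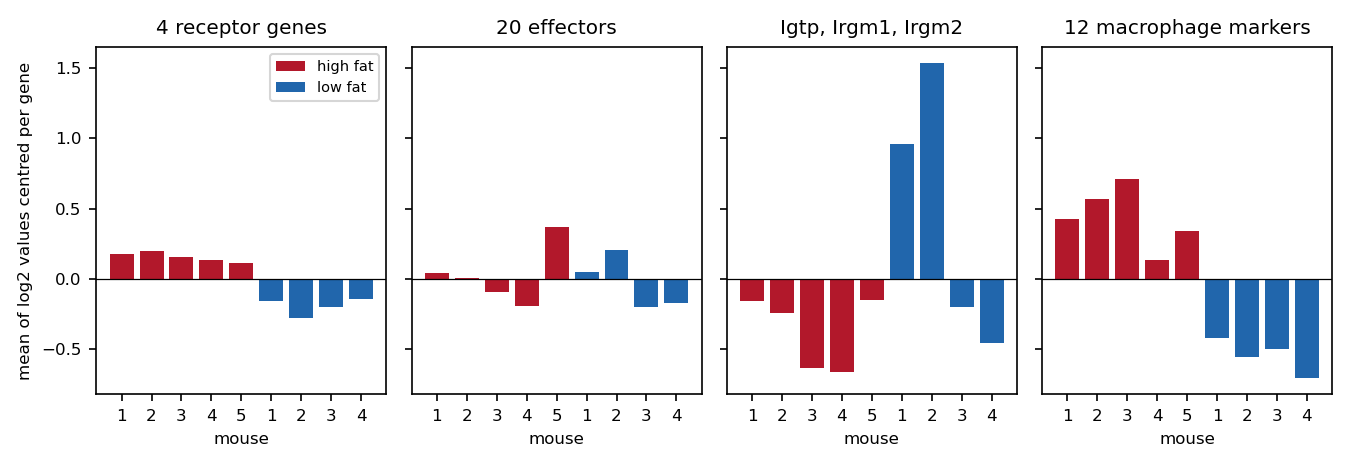
Mean per mouse of log2 values centred per gene, for the 4 receptor genes, the 20 effectors other than Igtp, Irgm1 and Irgm2, those 3 genes, and 12 macrophage markers. Receptors and macrophage markers divide by diet, effectors peak in high fat mouse 5 (0.37) and low fat mouse 2 (0.20), and the GTPases in low fat mice 2 (1.54) and 1 (0.96).

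Marker levels and Ifng were read in the same mice. T and NK cell markers had a mean log2 level of 6.35 to 6.69 in high fat mice. It was 6.89, 6.96, 6.55 and 6.59 in low fat mice 1 to 4. Of these 10 markers 0 were higher and 1, Ncr1, was lower by diet, against 12.4% and 9.13% of all genes. Low fat mice 1 and 2 had the highest T and NK marker means, and high fat mouse 5, at 6.35, the lowest of all 9 mice. Ifng, the interferon gamma gene, was at 6.20, 6.31, 6.31, 6.31 and 6.35 in high fat mice 1 to 5, against 6.31, 6.34, 6.29 and 6.23 in low fat mice 1 to 4. High fat mouse 1 was the lowest for Ifng, and the diets overlapped. All 9 Ifng values lay below the array medians of 6.45 to 6.50, and whether they lie above background was not determined. Smooth muscle markers were at 10.2 in low fat mouse 2 and 8.24 to 8.36 in the other low fat mice, and skeletal muscle markers at 8.65 in high fat mouse 1 and 6.19 to 6.29 in the other high fat mice. Skeletal muscle markers were at 7.30 in low fat mouse 4 and 6.26 to 6.40 in the other low fat mice. Macrophage markers were at 10.8 in high fat mouse 5, within the range of its group. The part of these values in the pattern was not tested.

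The genes upstream and beside the members were read from lists of the pathway. These lists were chosen with earlier results of these data known, so their shares beside those of all genes are description only. Of 20 interferon ligand genes 19 were measured and 0 passed limma, against 21.5% of all genes. Of the 19 ligand genes 0 had an unadjusted limma p under 0.05, against 7254 of all 22180 genes. Ifnb1, the interferon beta gene, was at 5.03 ± 0.06 (SD, n = 5) in the high fat group and 5.03 ± 0.01 (SD, n = 4) in the low fat group, below the array medians. Interferon alpha genes are near copies of each other, so their values cannot be assigned to single genes.

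Of 13 signalling genes 11 were measured, of which 5 rose and 0 fell (45.5% passed, against 21.5% of all genes). Beside Il10rb these were Ptpn6, a phosphatase of leukocytes (1.50-fold higher, limma adjusted p = 0.00616), Socs3, a feedback inhibitor (1.29-fold higher, limma adjusted p = 0.0103), Stat3 (1.18-fold higher, limma adjusted p = 0.00654) and Jak1, the kinase of both receptors (1.12-fold higher, limma adjusted p = 0.0319). Tyk2, the partner kinase, was just short of the threshold with a difference of 0.22 (limma adjusted p = 0.0516), and Socs1, an inhibitor of interferon signalling, had a difference of 0.00.

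Of 23 further nucleic acid sensing genes 18 were measured, of which 9 rose and 0 fell, with a median difference of 0.21. The share that passed was 50%, against 21.5% of all genes, 12.4% higher and 9.13% lower. Tlr7, the endosomal receptor for single-stranded RNA, was at 8.54, 8.69, 8.83, 8.27 and 8.68 in high fat mice 1 to 5, against 7.41, 7.62, 7.67 and 7.22 in low fat mice 1 to 4. All high fat mice lay above all low fat mice (2.17-fold higher, limma adjusted p = 0.000236). Unc93b1, which carries Tlr7 to endosomes, was 1.51-fold higher, the kinase genes Ikbke 1.57-fold higher and Tbk1 1.15-fold higher, and the adaptor genes Ticam2 1.45-fold higher and Myd88 1.21-fold higher (limma adjusted p from 0.00128 to 0.0188). Mavs, the adaptor of Ddx58 and Ifih1, differed by -0.14 and did not pass (limma adjusted p = 0.0616), and with quantile normalization or centred arrays 2 genes of this list fell. Without high fat mice 1 and 2 the number that rose was 5, and over all genes it went from 2742 to 1716.

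Of 40 further interferon-stimulated genes 35 were measured, of which 4 rose, 4 fell and 27 did not pass, with a median difference of -0.06. The 8 that passed are 22.9% of the list, near the 21.5% of all genes. Ifi30, a lysosomal thiol reductase of antigen-presenting cells, was 2.42-fold higher (limma adjusted p = 8.04e-05), Slfn2 2.06-fold higher (limma adjusted p = 0.00511), Epsti1 1.26-fold higher and Tor3a 1.15-fold higher. Trim14, an adaptor of the Mavs pathway, was 1.56-fold lower (limma adjusted p = 6.00e-05), and Pnpt1, Ly6e and Slfn4 were 1.13-fold, 1.15-fold and 1.20-fold lower. Leaving out 1 mouse moved these counts to between 2 and 4 higher and between 1 and 6 lower. Iigp1, a GTPase of the same family as Igtp, was at 9.11, 9.06, 8.68, 8.43 and 8.86 in high fat mice 1 to 5, against 10.70, 11.38, 9.35 and 8.82 in low fat mice 1 to 4. Low fat mice 1 and 2 were high for Iigp1 too, and the difference of -1.23 ± 0.45 (SE) did not pass (limma adjusted p = 0.0845).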

How the data were processed

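Total RNA of periprostatic fat from 9 mice was hybridised to Affymetrix Mouse Gene 2.0 ST arrays, 1 mouse per array, with an RNA integrity number above 7 per the labels. The deposited values are log2 expression made by the authors with RMA, and the submitters' processing notes also name limma and R 3.5.0; the annotation version was not given in the sources used here. In all, the table held 33793 rows, of which 23521 carried 1 gene symbol in the platform annotation, 1814 several and 8458 were not listed. The probe set with the highest mean was kept for each of 22180 genes. Values ran from 4.41 to 14.2, and array medians from 6.45 to 6.50. The number of arrays limits the precision.

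Diets were compared with limma 3.58.1 in R 4.3.3 (lmFit and eBayes, no covariate), with Benjamini-Hochberg adjustment over all genes and a threshold of 0.05. The fit was tested on simulated data. No batch or scan date was given. Members and lists were chosen with earlier results of these data known. Values per mouse are given for members past the threshold, for the 2 smallest p in each role and for Isg15, Irf7, Mx1 and Ifnar1. Those of Igtp, Irgm1, Irgm2, Iigp1, Ifng and Tlr7, the single-mouse values of Oas2 and Oasl2, and the naming of Tyk2, Socs1, Mavs, Ifnb1, Cd163, Lep and Ncr1 were chosen after the values were seen. Alternatives covered scaling, dim genes, probe sets, rows tested, variance model, array weights, mouse number, threshold and mice left out.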

Additional observations from a re-analysis of the deposited data

Results flagged for a closer look

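Of 84 sets of values (42 members in each diet), 6 held a mouse far from the others of its diet by Dixon's criterion, which chance alone meets in about 1 of 20. High fat mouse 5 was the highest of its group in 5 of them: Oas2 at 9.95 (next 9.03), Oas3 at 7.18 (next 6.86), Mx2 at 6.24 (next 5.85), Usp18 at 9.1 (next 8.44) and Xaf1 at 8.57 (next 8.23). For Ifngr1, high fat mouse 3 was lowest at 11.95 (next 12.06).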

How the results depend on the processing

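Ifnar1, Ifnar2, Ifngr2, Irf8 and Tmem173 passed in each of the 19 alternatives, and 18 of 42 members kept direction and side of the threshold in every alternative run. The cause of the changes below was not tested. The count of members lower was 1, and became 3 with quantile normalization repeated, 4 with centred arrays, 2 without dim genes, with trend and robust, or at a threshold of 0.1, and 0 without high fat mice 1 and 2. Leaving out 1 mouse gave 1 to 3. Nucleic acid sensing genes that fell were 2 with either scaling or at a threshold of 0.1 and 1 without dim genes, and 0 to 1 with 1 mouse left out. Without high fat mice 1 and 2, 5 of them rose. Over all genes 1716 rose and 1494 fell in that setting, against 2742 and 2026 in the chosen fit. Of the other interferon-stimulated genes, 2 fell when all rows were tested and 1 without high fat mice 1 and 2, and with 1 mouse left out 2 to 4 rose and 1 to 6 fell. Macrophage markers that fell were 0 to 1 with 1 mouse left out. Dim genes left out gave no value for Isg15, Mx1, Mx2 and Oas3.

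With mouse number as a replicate block, which also takes the unpaired high fat mouse 5 out of the diet difference, 4 members and 1 macrophage marker fell, Oas1b (-0.32) and Irgm1 (-0.50) among the members, Dhx58 no longer passed, and Usp18 turned to -0.0949. Correlations of same-numbered mice's deviations were 0.0833, 0.126, 0.067 and 0.0479. High fat mouse 2 and low fat mouse 2 matched each other best, and high fat mouse 3 matched low fat mouse 3 best. The other mice numbered 1 to 4 matched another number best. Whether same-numbered mice shared handling was not tested.

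The difference turned sign in some setting for 12 members, none past the threshold in the chosen fit. Zbp1 was 0.0464 with array weights, Eif2ak2 -0.0101 with quantile normalization and -0.0069 with centred arrays, and Ifit1 0.0262 with array weights and 0.0361 without high fat mice 1 and 2. With 1 mouse left out, the ranges were -0.24 to 0.066 for Stat2, -0.28 to 0.19 for Zbp1, -0.0055 to 0.11 for Eif2ak2, -0.17 to 0.14 for Ifit1, -0.14 to 0.0099 for Ifit3 and -0.0949 to 0.23 for Usp18. They were -0.0713 to 0.0251 for Ifi35, -0.0564 to 0.32 for Bst2, -0.17 to 0.0534 for Xaf1, -0.0883 to 0.0215 for Parp14, -0.41 to 0.0223 for Rtp4 and -0.16 to 0.0073 for Cmpk2.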
